A study of Homo sapiens with 6 samples.

Results

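The genes described here encode the secreted binding proteins of the insulin-like growth factors (IGFBP2, IGFBP3, IGFBP4, IGFBP5 and IGFBP6), the receptors IGF1R and IGF2R, and the insulin receptor substrate adaptors IRS1, IRS2 and IRS4. They are 10 of the 60664 genes in the count table, all 10 had a row, and all 10 passed the filter on low counts. The set was chosen by measured values of this same contrast, the lower counts of IGFBP3 and IRS4 in GPT1 libraries, so the values of these genes are a description with no test. The other 8 were listed as members of the same families. The study sequenced mRNA of HCT8, by its label a line of human colorectal cancer, to ask which signalling pathway GPT1 regulates in this cancer. In 3 libraries the cells had received a plasmid for GPT1 overexpression by transfection, and in 3 a control plasmid, with the genotype labelled WT. Cells of both groups were grown in DMEM with 10% foetal bovine serum, a medium that brings its own growth factors.

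Insulin-like growth factors are peptide hormones that signal through IGF1R, a tyrosine kinase of the cell surface, while IGF2R binds and clears IGF2 and carries mannose-6-phosphate-tagged enzymes to lysosomes. The binding proteins hold the growth factors outside the cell, prolong their life and limit or direct their access to receptors, and proteases that cut them release the ligand. Activated IGF1R and insulin receptor phosphorylate IRS adaptors, which recruit phosphatidylinositol 3-kinase and so switch on AKT and mTOR and switch off FOXO transcription factors.

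The libraries held between 30370654 and 31513656 counts in the GPT1 group, and between 21255655 and 32487217 in the control group. GPT, the gene for GPT1, the cytosolic alanine aminotransferase, had 96886 to 106063 counts in GPT1 libraries against 3 to 14 in control libraries, as the labels state. Of 17638 tested genes, 4430 passed an adjusted p of 0.05, 1858 higher and 2572 lower in GPT1 libraries. Removing each library's trend with transcript length and GC content gave 6091 genes, 3486 higher and 2605 lower. The fit called 1586 genes without GPT1 replicate 1, 1443 without GPT1 replicate 3 and 2565 without control replicate 1. Of 12 fixed intestinal epithelial markers, 9 were tested and 8 were lower in GPT1 libraries. The summed level of the list was 562 to 633 CPM (counts scaled to library size) in GPT1 libraries against 886 to 1040 CPM in control libraries. KRT8 and KRT18 made most of this sum, averaging 352 and 171 CPM in GPT1 libraries and 529 and 261 CPM in control libraries. CDH1, KRT19 and EPCAM averaged 12, 11 and 9.3 CPM in GPT1 libraries and 50, 51 and 25 CPM in control libraries. VIL1, LGALS4 and CDH17 did not exceed 12.9 CPM in any library. Among the 12 markers CDX2 lay at 37.0 to 48.4 CPM in all 6 libraries, while the colonic markers KRT20, GPA33 and CEACAM5 did not exceed 0.451 CPM in any library. A list of 7 neural and embryonic kidney line markers summed to 194 to 199 CPM in GPT1 libraries and 413 to 504 CPM in control libraries, of which the neurofilament genes NEFM and NEFL made most. In this list NEFH, TUBB3 and PAX8 did not exceed 1.02 CPM in any library, and MAP2 and PAX2 did not exceed 6.24 CPM. The colorectal label thus had only some of its defining markers in these libraries. Endothelial markers summed to at most 0.951 CPM, leukocyte markers to at most 4.44 CPM and hepatocyte markers to at most 3.89 CPM in any library. The fibroblast list was at 60.9 to 62.4 CPM in GPT1 libraries against 50.6 to 53.7 CPM in control libraries, with THY1 and FAP at 0 counts in all 6. ACTA2 made most of it, averaging 39.4 CPM in GPT1 libraries and 28.0 CPM in control libraries. COL1A1 went the other way, averaging 15.5 CPM in GPT1 libraries and 18.6 CPM in control libraries, and did not pass.

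The promoters of the binding protein genes with the largest differences and of IRS4 are shown to let their start-proximal sequence be read beside the values that follow. Each is the 250 bases before a RefSeq transcript start (GRCh38.p14), written on the gene's strand. IGFBP3 is shown at chr7:45921273-45921522 (minus strand), IGFBP4 at chr17:40443200-40443449 (plus strand), IGFBP5 at chr2:216695550-216695799 (minus strand) and IRS4 at chrX:108736564-108736813 (minus strand, its outermost start). Capitals mark matches to the TATA motifs TATAAA or TATATA on the gene's strand, and to the GC box GGGCGG, the AP-1 motif TGANTCA, the FOXO motif TGTTTAC or the E-box CACGTG on either strand.
IGFBP3: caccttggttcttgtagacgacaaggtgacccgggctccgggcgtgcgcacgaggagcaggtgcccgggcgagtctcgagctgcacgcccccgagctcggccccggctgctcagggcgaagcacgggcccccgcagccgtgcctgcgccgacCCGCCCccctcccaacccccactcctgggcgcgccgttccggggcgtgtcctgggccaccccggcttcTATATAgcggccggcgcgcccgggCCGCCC
IGFBP4: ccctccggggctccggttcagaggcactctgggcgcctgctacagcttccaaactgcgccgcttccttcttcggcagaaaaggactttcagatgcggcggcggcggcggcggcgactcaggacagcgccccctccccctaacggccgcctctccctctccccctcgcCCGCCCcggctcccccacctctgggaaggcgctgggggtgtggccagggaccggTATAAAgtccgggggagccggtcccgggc
IGFBP5: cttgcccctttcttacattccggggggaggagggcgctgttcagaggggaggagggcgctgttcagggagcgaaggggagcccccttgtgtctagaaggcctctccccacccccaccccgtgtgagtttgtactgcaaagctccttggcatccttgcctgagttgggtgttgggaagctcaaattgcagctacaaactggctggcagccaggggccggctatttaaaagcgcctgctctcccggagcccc
IRS4: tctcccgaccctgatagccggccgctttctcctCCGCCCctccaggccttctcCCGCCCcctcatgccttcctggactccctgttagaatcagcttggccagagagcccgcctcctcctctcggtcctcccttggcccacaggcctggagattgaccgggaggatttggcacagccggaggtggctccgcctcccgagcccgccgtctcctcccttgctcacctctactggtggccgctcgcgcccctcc
IGFBP3 carried TATATA 30 bases before its start and IGFBP4 carried TATAAA 29 bases before its start. These were the only members with either TATA motif, which 9.51% of 35116 RefSeq promoter windows of this length held. IGFBP5 had none of the motifs searched. IGFBP2 had 3 such windows, IRS4 had 2 and the other members had 1. A GC box stood in a window of 9 of the 10 members, against 42.6% of all windows. A member counted if any of its windows matched while the shares are per window, so IGFBP2 and IRS4 had more chances. The AP-1 motif was in none of the 10, against 6.57% of all windows. The FOXO motif was in 1 member, IGFBP6 (2.98% of all windows), and the E-box in 2, IGF2R and the inner start of IRS4 (6.34% of all windows). A match is a run of letters, not a shown binding site.

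Among the 8 members not used to choose the set, 3 were lower in GPT1 libraries at an adjusted p under 0.05 (IGFBP4, IGFBP5 and IRS1), none was higher and 5 did not pass (IGFBP2, IGFBP6, IGF1R, IGF2R and IRS2). Of all tested genes 25.1% passed, 14.6% lower and 10.5% higher. With the length and GC correction, 5 of the 8 passed, 2 higher (IGF1R and IGF2R) and 3 lower, against 34.5% of all tested genes under the same correction, 19.8% higher and 14.8% lower. All GPT1 libraries lay below all control libraries for 3 of these 8 members, against 22.2% of all tested genes, and above them for none, against 21.2%. A lower level in such bulk libraries cannot tell fewer cells with a transcript from less transcript per cell.

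**Figure D1:**
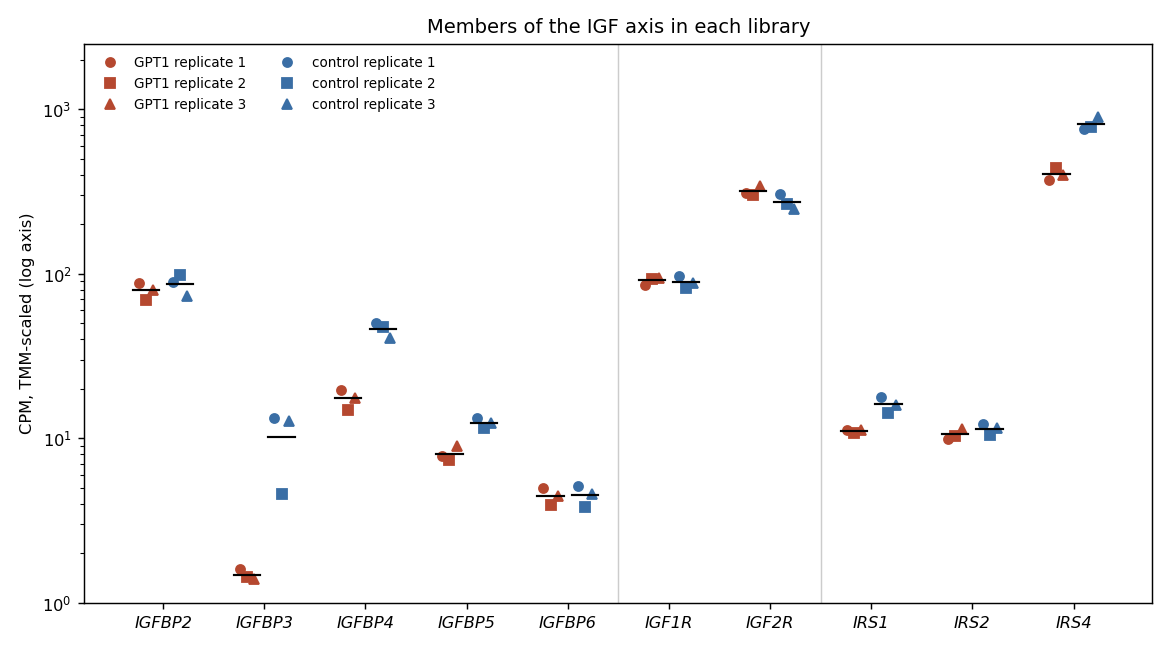
Level of each member in each of the 6 libraries, in CPM with TMM scaling on a log axis, GPT1 libraries in red left of control libraries in blue, with a bar at each group's mean. IGFBP3, IGFBP4, IGFBP5, IRS1 and IRS4 have GPT1 points all below the control points, and the other 5 members overlap. Heights compare libraries for a gene, not genes with each other.

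IGFBP3 and IGFBP4 showed the largest differences among the binding proteins. IGFBP3, the main circulating carrier of the growth factors and also an inducer of cell death in several cell types, had 50, 44 and 43 counts in GPT1 libraries, against 437, 145 and 275 in control libraries. Scaled to library size these were 1.61, 1.44 and 1.41 CPM in GPT1 libraries, against 13.4, 4.60 and 12.7 CPM in control libraries. The groups did not overlap, the GPT1 libraries lay close together and control replicate 2 stood well below the other two controls. The mean was 1.49 ± 0.11 CPM in GPT1 libraries and 10.2 ± 4.88 CPM in control libraries (SD, n = 3 each), 6.88-fold lower with GPT1. The fitted log2 fold change was -2.77 ± 0.36 (SE), and it ran between -3.13 without control replicate 2 and -2.51 without control replicate 1. The SD of log2 CPM was 0.099 among GPT1 libraries and 0.86 among control libraries, and the control value lay at the 99th percentile of all tested genes. The gene (ENSG00000146674) lies on GRCh38 chromosome 7 at 45912245 to 45921874, minus strand.

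IGFBP4, which binds both growth factors and mostly restrains them until a pappalysin cuts it, was measured at 19.8, 15.0 and 17.7 CPM in GPT1 libraries, against 50.0, 47.3 and 40.8 CPM in control libraries. Every GPT1 library was below every control library. The means were 17.5 ± 2.45 CPM in GPT1 libraries and 46.0 ± 4.70 CPM in control libraries (SD, n = 3 each), a log2 fold change of -1.40 ± 0.13 (SE, 95% interval -1.69 to -1.11, adjusted p = 1.2e-04, edgeR). IGFBP4 stayed past the threshold in every alternative run, with log2 fold changes between -1.50 and -1.28. The gene (ENSG00000141753) lies on chromosome 17 at 40443461 to 40457731, plus strand.

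IGFBP5, the most conserved binding protein and one that sticks to extracellular matrix, was at 7.79, 7.34 and 9.03 CPM in GPT1 libraries, against 13.3, 11.6 and 12.4 CPM in control libraries. The groups were apart and the spread within each was small. The fitted difference was -0.63 ± 0.13 on the log2 scale (SE, 95% interval -0.91 to -0.34, adjusted p = 0.0093, edgeR), with means of 8.05 ± 0.87 CPM in GPT1 libraries and 12.4 ± 0.87 CPM in control libraries (SD, n = 3 each). Its tail-to-tail neighbour on chromosome 2 is IGFBP2, at 216632828 to 216664436 on the plus strand, while IGFBP5 spans 216672105 to 216695525 on the minus strand, 7668 bases away.

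IGFBP2, a binding protein with a preference for IGF2 that is abundant in fetal tissues and many tumours, did not follow its neighbour past the threshold. It was at 87.9, 69.8 and 80.3 CPM in GPT1 libraries, against 89.6, 98.3 and 73.4 CPM in control libraries. The groups overlapped, with a log2 fold change of -0.14 ± 0.12 (SE, 95% interval -0.41 to 0.13, adjusted p = 0.429, edgeR). IGFBP6, which strongly prefers IGF2, was at 5.02, 3.93 and 4.48 CPM in GPT1 libraries, against 5.14, 3.84 and 4.63 CPM in control libraries. These values lay on top of each other, with a log2 fold change of -0.02 ± 0.16 (SE, 95% interval -0.38 to 0.34, adjusted p = 0.949, edgeR). IGFBP6 lies on chromosome 12 at 53097436 to 53102345, plus strand.

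To compare genes with each other, CPM was divided by the summed exon length of each gene in kilobases. Summed over the 5 binding proteins this level was 29.5 ± 3.48 CPM per kb in GPT1 libraries and 46.7 ± 4.22 CPM per kb in control libraries (SD, n = 3 each). IGFBP2 made up 56.3%, 56.7% and 56.3% of that sum in GPT1 libraries, against 37.4%, 43.2% and 36.6% in control libraries. IGFBP4 made up 27.5%, 26.3% and 26.9% in GPT1 libraries, against 45.2%, 45.0% and 44.1% in control libraries. On this scale the largest share belonged to IGFBP2 in every GPT1 library and to IGFBP4 in every control library. That order depends on the length used, all annotated exons of a gene merged, 4767 bases for IGFBP2 and 2200 for IGFBP4. A length taken from the transcripts in use was not available. Without division by length IGFBP2 had the largest share in all 6 libraries, 71.6% on average in GPT1 libraries and 54.2% in control libraries, against 15.8% for IGFBP4 in GPT1 libraries and 28.7% in control libraries. IGFBP6 took a mean of 11.3% in GPT1 libraries and 7.24% in control libraries. IGFBP5 took 4.26% in GPT1 libraries and 4.14% in control libraries, and IGFBP3 took 1.11% in GPT1 libraries and 4.84% in control libraries. Shares add to a whole, so that a gene's share moves when another gene's level does. The intestinal marker list and the neurofilament genes given above were lower in the same GPT1 libraries, and their part in the binding protein differences was not tested.

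**Figure D2:**
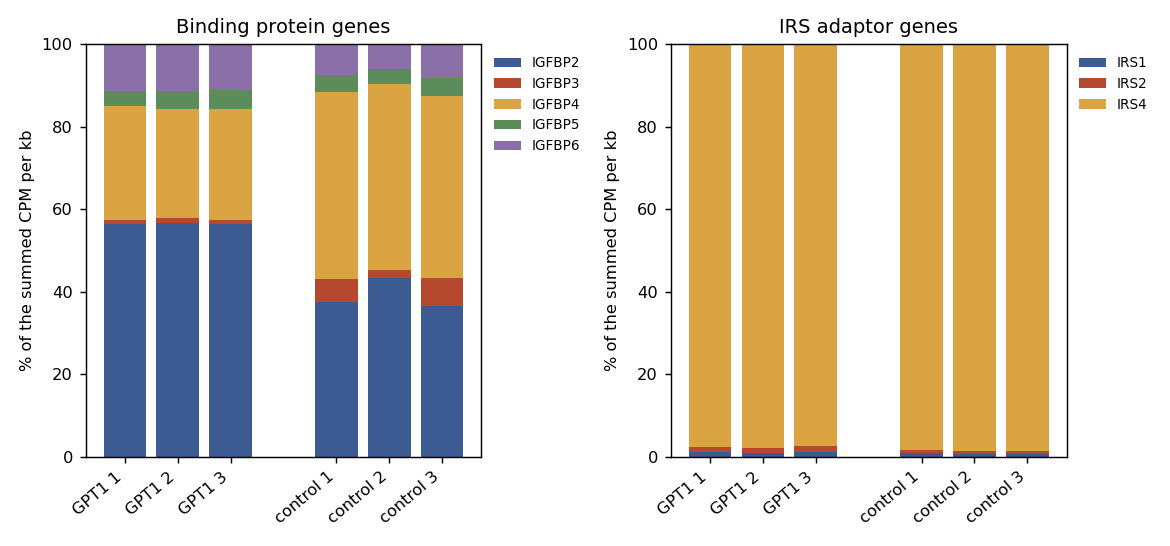
Share of each gene in its family's summed level per library, in percent of the summed CPM per kb of exon, with GPT1 libraries left of control libraries. On the left, IGFBP2 takes 56.3% to 56.7% in GPT1 libraries against 36.6% to 43.2% in control libraries. On the right, IRS4 takes over 97% in every library.

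The receptors did not pass the test in either direction. IGF1R, the signalling receptor, was at 86.0, 93.1 and 94.7 CPM in GPT1 libraries, against 97.4, 82.7 and 88.4 CPM in control libraries. The groups overlapped, with a log2 fold change of 0.03 ± 0.09 (SE, 95% interval -0.17 to 0.23, adjusted p = 0.84, edgeR). IGF2R, the clearing receptor, was at 312, 303 and 343 CPM in GPT1 libraries, against 306, 266 and 249 CPM in control libraries. Control replicate 1 lay within the GPT1 range, with a log2 fold change of 0.22 ± 0.10 (SE, 95% interval 0.01 to 0.43, adjusted p = 0.106, edgeR). IGF1R spans 98648539 to 98964530 on chromosome 15 and IGF2R 159969099 to 160113507 on chromosome 6, both on the plus strand.

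These receptor genes have long transcripts, 12235 bases for IGF1R and 14044 bases for IGF2R, and long transcripts were lower in GPT1 libraries across the table. Over 17436 genes the log2 fold change ran against transcript length with a Spearman rho of -0.331 and with GC content at a rho of 0.31, a relation across genes, which are not independent replicates. After removal of that trend the log2 fold change was 0.23 for IGF1R (adjusted p = 0.00876, edgeR) and 0.46 for IGF2R (adjusted p = 0.00104, edgeR). The call for either receptor therefore turned on this correction. The 2 groups of libraries differ in this trend as a whole, and transfection and trend cannot be told apart.

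INSR, the insulin receptor, was at 38.5, 41.8 and 42.3 CPM in GPT1 libraries, against 50.7, 43.5 and 47.8 CPM in control libraries. The groups were narrowly apart but the log2 fold change of -0.21 ± 0.10 (SE) did not pass (adjusted p = 0.136, edgeR), and it was -0.03 after the length and GC correction. Per kilobase, IGF1R exceeded INSR 1.68, 1.67 and 1.68 times in GPT1 libraries, against 1.44, 1.42 and 1.39 times in control libraries. IGF2R exceeded IGF1R per kilobase 2.84, 2.54 and 2.83 times in GPT1 libraries, against 2.46, 2.52 and 2.20 times in control libraries. Both ratios were higher in every GPT1 library than in any control library, and neither was tested. INSRR, an orphan relative of the insulin receptor, had 2, 3 and 4 counts in GPT1 libraries, against 6, 4 and 3 in control libraries, too few for the test.

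IRS4 was the most abundant member in every library. IRS4, an adaptor with a restricted tissue range that was first described in a human embryonic kidney line and that lacks much of the feedback control of IRS1, had 11536, 13501 and 12174 counts in GPT1 libraries, against 24775, 24610 and 19483 in control libraries. These correspond to 371, 443 and 398 CPM in GPT1 libraries, against 757, 781 and 901 CPM in control libraries. The groups were far apart, and control replicate 3, the shallowest library, was the highest. The mean was 404 ± 36.0 CPM in GPT1 libraries and 813 ± 77.0 CPM in control libraries (SD, n = 3 each), 2.01-fold lower with GPT1. The fitted log2 fold change was -1.01 ± 0.10 (SE) and lay between -1.06 and -0.92 when each library was left out in turn. The gene (ENSG00000133124) lies on chromosome X at 108732482 to 108736409, minus strand.

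Per kilobase IRS4 averaged 102.9 CPM in GPT1 libraries, at the 96.9th to 97.7th percentile of 13938 tested protein-coding genes, and 207 CPM in control libraries, at the 98.9th to 99.2nd percentile. The antisense gene AL035425.1, which overlaps IRS4, had 153, 201 and 162 counts in GPT1 libraries, against 223, 188 and 141 in control libraries. These are few beside the counts of IRS4, and without a stated strand setting reads of the pair cannot be told apart. AL035425.2, a gene model on the same strand that overlaps IRS4, had no row in the count table and was not analysed here. NEFM, which belongs to the marker list of neural and kidney lines, was at 102 to 108 CPM in GPT1 libraries against 253 to 336 CPM in control libraries. Its part and that of its list in the IRS4 difference were not tested.

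IRS1, the adaptor through which insulin and IGF1 receptors mainly act in muscle and many epithelia, was at 11.3, 10.9 and 11.3 CPM in GPT1 libraries, against 17.9, 14.4 and 16.1 CPM in control libraries. All GPT1 libraries were below all control libraries. The fitted difference was -0.53 ± 0.12 on the log2 scale (SE, 95% interval -0.81 to -0.26, adjusted p = 0.0141, edgeR), and -0.35 after the length and GC correction (adjusted p = 0.0118). The call was lost without GPT1 replicate 3, at a log2 fold change of -0.54 (adjusted p = 0.0594), and without control replicate 1, at -0.44 (adjusted p = 0.0604). Calls over the whole table also fell in those runs, as given above. IRS1 lies on chromosome 2 at 226731317 to 226799759, minus strand.

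IRS2, the main adaptor of insulin signalling in liver and pancreatic beta cells and itself a FOXO target, was at 9.92, 10.3 and 11.5 CPM in GPT1 libraries, against 12.3, 10.5 and 11.6 CPM in control libraries. The groups overlapped, and the log2 fold change of -0.11 ± 0.13 (SE, 95% interval -0.39 to 0.16, adjusted p = 0.524, edgeR) became 0.05 after the length and GC correction. IRS2 lies on chromosome 13 at 109752698 to 109786568, minus strand. Per kilobase, IRS4 made up 97.6%, 98.0% and 97.6% of the 3 adaptors' sum in GPT1 libraries, against 98.3%, 98.7% and 98.7% in control libraries. The sum itself was 105 ± 9.16 CPM per kb in GPT1 libraries and 210 ± 19.6 CPM per kb in control libraries (SD, n = 3 each). IRS1 took a mean of 1.07% in GPT1 libraries and 0.776% in control libraries. IRS2 took 1.24% in GPT1 libraries and 0.673% in control libraries.

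**Figure D3:**
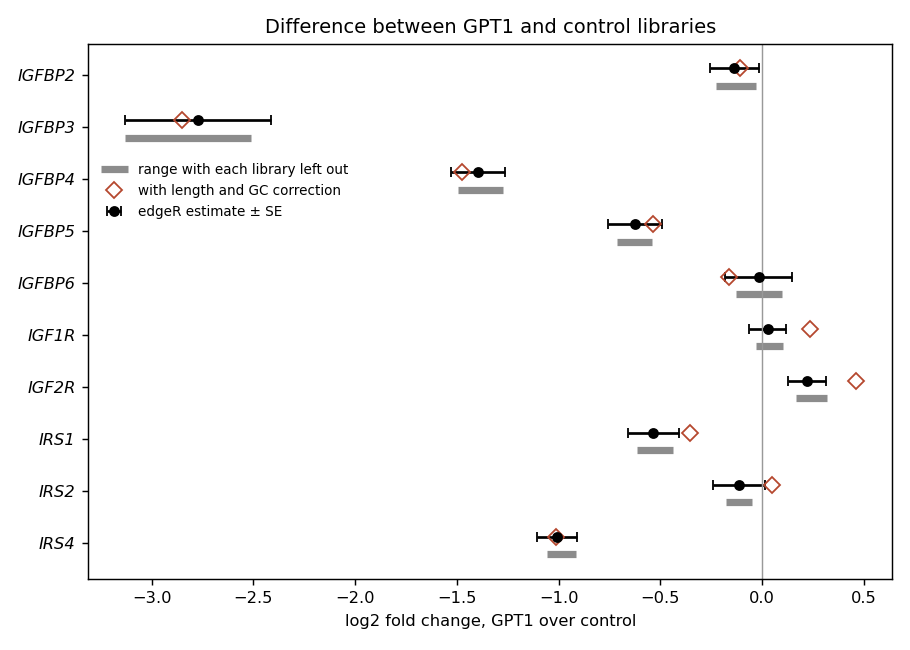
Log2 fold change of each member, GPT1 over control, with the edgeR estimate and its SE (black), the range when each library is left out in turn (grey) and the estimate with the length and GC correction (open red diamond). IGFBP3 is at -2.77 and IGFBP4 at -1.40, and the diamonds of IGF1R (0.23) and IGF2R (0.46) lie to the right of their black points.

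Ordered by level per kilobase in GPT1 libraries, the members ran IRS4 (102.9 CPM per kb), IGF2R (17.9), IGFBP2 (16.6), IGFBP4 (7.95), IGF1R (6.55), IGFBP6 (3.33), IRS2 (1.30), IGFBP5 (1.25), IRS1 (1.12) and IGFBP3 (0.325). In control libraries the order was IRS4 (207 CPM per kb), IGFBP4 (20.9), IGFBP2 (18.3), IGF2R (15.4), IGF1R (6.42), IGFBP6 (3.37), IGFBP3 (2.24), IGFBP5 (1.93), IRS1 (1.62) and IRS2 (1.41). In GPT1 libraries the ranges of IGF2R and IGFBP2 overlapped, as did those of IRS2 and IGFBP5. In control libraries the ranges of IGFBP4, IGFBP2 and IGF2R overlapped from neighbour to neighbour, and so did those of IGFBP6, IGFBP3, IGFBP5, IRS1 and IRS2. Among control libraries replicate 2 was the lowest for IGFBP3, IGFBP5, IGFBP6, IGF1R, IRS1 and IRS2, by small margins except for IGFBP3.

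The growth factors themselves were close to absent from the cells' own transcripts. IGF1 and INS had 0 counts in all 6 libraries, which allows up to 3 counts per library, or 0.0966 to 0.0984 CPM in GPT1 libraries and 0.0917 to 0.139 CPM in control libraries, for counting error alone. IGF2 had 5, 1 and 11 counts in GPT1 libraries, against 6, 6 and 4 in control libraries. IGFBP1, a liver and decidua binding protein and a classical insulin-repressed gene, had 0 counts in all 3 GPT1 libraries and in control replicates 1 and 2, but 43 counts in control replicate 3 (exact Poisson 95% interval 31.1 to 57.9). It was the only gene with at least 20 counts in that library and 0 in the other 5. IGFBP1 lies at 45888357 to 45893668 on chromosome 7, 18576 bases from IGFBP3, which was at 12.7 CPM in that library, within the range of the other controls.

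IGFBP7, a secreted relative that binds the growth factors weakly, was at 9.21, 7.15 and 8.44 CPM in GPT1 libraries, against 5.62, 6.03 and 5.37 CPM in control libraries. Its groups did not overlap, with a log2 fold change of 0.54 ± 0.14 (SE, adjusted p = 0.0212, edgeR). The call was lost without GPT1 replicate 1, GPT1 replicate 3 or control replicate 1, with adjusted p up to 0.0888. IGFBPL1, an IGFBP-like protein, was under 1 CPM in every library and did not pass (log2 fold change 0.02 ± 0.32, SE, adjusted p = 0.97, edgeR). IGFALS, which stabilises the circulating complex of IGF and IGFBP3, had 11, 5 and 5 counts in GPT1 libraries, against 4, 3 and 0 in control libraries, and was not tested.

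Of 115 other genes listed for the pathway, 98 were tested and 35 passed, 35.7% against 25.1% of the table, 9 higher and 26 lower in GPT1 libraries. Their median log2 fold change was -0.11, against -0.02 for all tested genes. With the length and GC correction 42 passed, 19 higher and 23 lower, beside 34.5% of the table. Without GPT1 replicate 1 or without GPT1 replicate 3, 12 passed, beside 8.8% of the table in the first case and 7.98% in the second. The lists were written with earlier results of these data known, so these shares are a description.

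**Figure D4:**
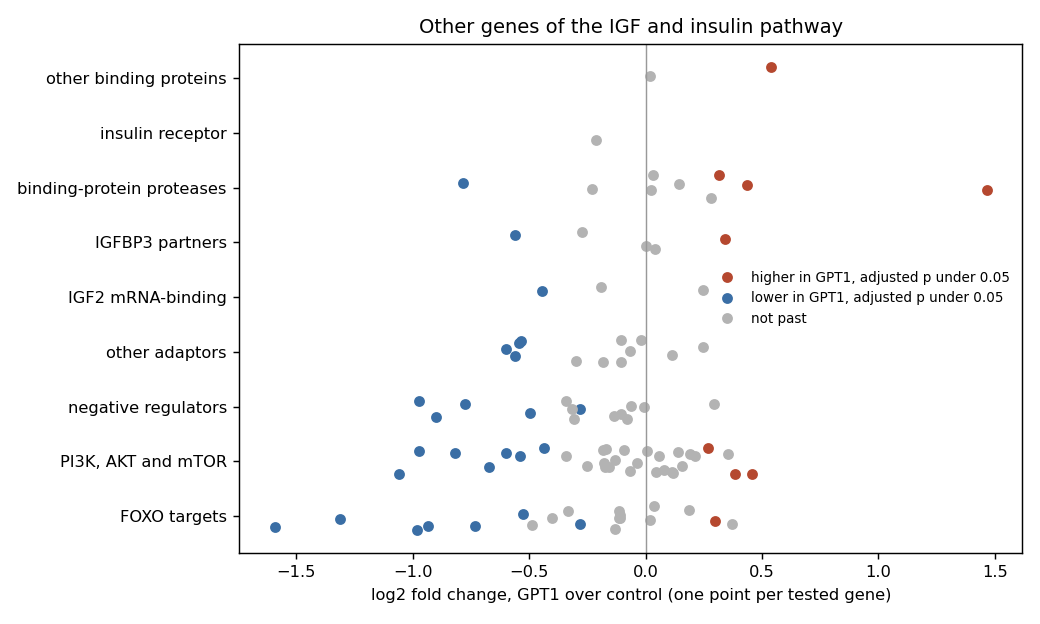
Log2 fold change of each tested gene of the other pathway lists, GPT1 over control, a point per gene, red where higher and blue where lower at an adjusted p under 0.05 and grey otherwise. TXNIP among FOXO targets is the leftmost point at -1.59, and PAPPA2 among the proteases the rightmost at 1.47.

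Of 9 tested genes for proteases of the binding proteins and their inhibitors, 3 were higher and 1 was lower. Those called made 44.4% of the tested genes of this list, against 25.1% of the whole table. ADAM9, a membrane metalloprotease, was at 58.5 ± 8.91 CPM in GPT1 libraries and 101 ± 22.7 CPM in control libraries (SD, n = 3 each), a log2 fold change of -0.78 (adjusted p = 0.00765, edgeR). PAPPA2, a pappalysin that cuts IGFBP3 and IGFBP5, was at 0.967 ± 0.175 CPM in GPT1 libraries and 0.341 ± 0.102 CPM in control libraries, a log2 fold change of 1.47 (adjusted p = 0.0128, edgeR) on few counts. STC2, an inhibitor of pappalysins, was at 490 ± 15.7 CPM in GPT1 libraries and 393 ± 35.7 CPM in control libraries (log2 fold change 0.32, adjusted p = 0.0242, edgeR). CTSD, the lysosomal cathepsin D, was at 72.4 ± 4.69 CPM in GPT1 libraries and 53.4 ± 8.29 CPM in control libraries (log2 fold change 0.44, adjusted p = 0.0241, edgeR). PAPPA2, STC2 and CTSD lost their calls without GPT1 replicate 3, STC2 and CTSD also without GPT1 replicate 1, and CTSD also without control replicate 1. STC2 also lost its call with the replicate number added to the model, while ADAM9 kept its call in all 16 alternatives.

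Of 5 genes for cell-surface and other partners of IGFBP3, 1 was higher and 1 lower, 40% called against 25.1% of the whole table. LRP1, a large endocytic receptor, was at 101 ± 1.60 CPM in GPT1 libraries and 149 ± 21.4 CPM in control libraries (log2 fold change -0.56, adjusted p = 0.00524, edgeR). TMEM219, described as a death receptor for IGFBP3, was at 79.2 ± 7.61 CPM in GPT1 libraries and 62.5 ± 6.47 CPM in control libraries (log2 fold change 0.34, adjusted p = 0.0404, edgeR). Its call was lost under 6 of 16 alternatives, the length and GC correction among them (adjusted p = 0.0581), with adjusted p up to 0.164. Of 3 genes for IGF2 mRNA-binding proteins, 1 was lower and none was higher, 33.3% called against 25.1% of the whole table. The lower gene was IGF2BP2, at 55.0 ± 3.42 CPM in GPT1 libraries and 74.8 ± 2.73 CPM in control libraries (log2 fold change -0.45, adjusted p = 0.00764, edgeR). IGF2BP1 had a log2 fold change of 0.25 that did not pass (adjusted p = 0.0617, edgeR) but was 0.40 with the length and GC correction (adjusted p = 0.00127).

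Of 12 tested genes for other adaptors, 4 were lower and none was higher, 33.3% called against 25.1% of the whole table. SOS1, the exchange factor that activates RAS, was at 26.6 ± 3.65 CPM in GPT1 libraries and 40.5 ± 7.93 CPM in control libraries (log2 fold change -0.60, adjusted p = 0.0191, edgeR). PTPN11, the phosphatase SHP2, was at 193 ± 30.9 CPM in GPT1 libraries and 285 ± 57.9 CPM in control libraries (log2 fold change -0.56, adjusted p = 0.0214, edgeR). NCK1 and GAB1, docking adaptors, had log2 fold changes of -0.54 (adjusted p = 0.0212, edgeR) and -0.54 (adjusted p = 0.0444, edgeR). All 4 calls were lost without GPT1 replicate 1 or without GPT1 replicate 3. SOS1 and GAB1 also lost theirs with the length and GC correction, at log2 fold changes of -0.14 and -0.10.

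Of 14 genes listed as negative regulators of the receptors and adaptors, 5 were lower and none was higher. The share called was 35.7%, against 25.1% of the whole table, where 14.6% were lower and 10.5% higher. SOCS3, which targets IRS proteins for degradation, was at 2.82 ± 0.08 CPM in GPT1 libraries and 4.86 ± 0.43 CPM in control libraries (log2 fold change -0.78, adjusted p = 0.00609, edgeR). It was the only gene of this list to pass in all 16 alternatives. PHIP, a protein that binds the pleckstrin homology domain of IRS1, had a log2 fold change of -0.97 (adjusted p = 0.0169, edgeR). Binding to IRS1 does not make PHIP an inhibitor. The counts for this list include it, and its difference is not read as the loss of a restraint. NEDD4, a ubiquitin ligase of IGF1R and other receptors, had a log2 fold change of -0.90 (adjusted p = 0.0175, edgeR). PTPRF, a receptor phosphatase, had a log2 fold change of -0.28 (adjusted p = 0.0351, edgeR). With the length and GC correction these were -0.42 for PHIP, -0.46 for NEDD4 and -0.13 for PTPRF. PHIP lost its call without GPT1 replicate 1 or GPT1 replicate 3, and NEDD4 without GPT1 replicate 1. PTPRF passed in 9 of 16 alternatives, and lost its call with the correction (adjusted p = 0.11) and when any GPT1 replicate or control replicate 1 was left out, among others.

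Of 32 tested genes for the kinase cascade of phosphatidylinositol 3-kinase, AKT and mTOR, 3 were higher and 7 lower, but with the length and GC correction 11 were higher and 5 lower. Without the correction 31.2% of this list passed, against 25.1% of the whole table. The table had 10.5% higher and 14.6% lower, and with the correction 19.8% higher and 14.8% lower. AKT1, the most widely expressed AKT kinase, was at 258 ± 11.8 CPM in GPT1 libraries and 198 ± 19.0 CPM in control libraries (log2 fold change 0.39, adjusted p = 0.0141, edgeR). With the correction its log2 fold change was 0.57. DEPTOR, an inhibitor of mTOR, was at 3.40 ± 0.24 CPM in GPT1 libraries and 5.44 ± 0.37 CPM in control libraries (log2 fold change -0.68, adjusted p = 0.00971, edgeR). GSK3A, a kinase that AKT inhibits, was at 72.0 ± 6.59 CPM in GPT1 libraries and 52.4 ± 4.48 CPM in control libraries (log2 fold change 0.46, adjusted p = 0.0128, edgeR). AKT1 and GSK3A lost their calls without GPT1 replicate 1 or GPT1 replicate 3, and DEPTOR passed in all 16 alternatives.

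Of 20 tested genes described as FOXO targets, 7 were lower, 1 was higher and 12 did not pass. Those called made 40% of the list, against 25.1% of the whole table. With the length and GC correction 6 were lower and 2 higher, beside 14.8% lower and 19.8% higher in the whole table. The gene that was higher without the correction was SESN1 (log2 fold change 0.30, adjusted p = 0.049, edgeR), which passed in 8 of 16 alternatives. The lower genes with the smallest adjusted p follow. TXNIP, which restrains thioredoxin and glucose uptake, was at 35.3 ± 1.46 CPM in GPT1 libraries and 106 ± 7.94 CPM in control libraries (log2 fold change -1.59, adjusted p = 7.4e-06, edgeR). BCL6, a transcriptional repressor, was at 7.79 ± 0.11 CPM in GPT1 libraries and 15.4 ± 1.29 CPM in control libraries (log2 fold change -0.98, adjusted p = 6.1e-04, edgeR). ERBB3, a receptor of the EGF receptor family, was at 5.75 ± 0.36 CPM in GPT1 libraries and 11.0 ± 0.75 CPM in control libraries (log2 fold change -0.93, adjusted p = 0.00108, edgeR). PCK1, the gluconeogenic enzyme phosphoenolpyruvate carboxykinase, was at 6.24 ± 0.20 CPM in GPT1 libraries and 15.6 ± 4.79 CPM in control libraries (log2 fold change -1.31, adjusted p = 0.00178, edgeR). These 4 genes passed in all 16 alternatives, and each is also under control of factors other than FOXO.

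Among 11538 genes with a mean of at least 5 CPM, the pattern of IGFBP3 over the 6 libraries was most like that of IGSF9B (Pearson r of log2 CPM 0.999), NDRG1 (0.994), GREB1 (0.992), FAXDC2 (0.992) and NDEL1 (0.991). The mean level of NDRG1, a gene induced by hypoxia and other stresses, was 70.8 CPM in GPT1 libraries and 155 CPM in control libraries, and that of IGSF9B was 22.3 CPM in GPT1 libraries and 35.3 CPM in control libraries. GREB1, FAXDC2 and NDEL1 averaged 39.6, 7.73 and 48.4 CPM in GPT1 libraries and 49.2, 8.58 and 55.3 CPM in control libraries. All of these differences were smaller than that of IGFBP3, as Pearson r takes no account of size. The pattern of IRS4 was most like that of MAP7 (0.999), CD302 (0.998), CTBP2 (0.998), ENOX1 (0.997) and RIMKLB (0.996). MAP7, a microtubule-associated protein, averaged 43.7 CPM in GPT1 libraries and 58.1 CPM in control libraries. CD302, a lectin-like receptor, averaged 6.71 CPM in GPT1 libraries and 13.4 CPM in control libraries. These are descriptions over 6 points that fall into 2 groups and share their libraries and depth.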

How the data were processed

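mRNA libraries were prepared from Trizol-extracted total RNA of 6 samples with an Illumina protocol, per the labels' protocols. The authors deposited raw whole-number counts for each gene, which the authors made from reads aligned to GRCh38 by HISAT2 2.0 according to the submitters' processing notes. Which tool counted the reads, and with which annotation and strand setting, the sources used here leave unstated. No source states separate cultures, so p-values measure only the spread between these samples. GENCODE 29 gave symbols to 60652 of 60664 identifiers, and lengths and coordinates.

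Groups were compared with edgeR 4.0.16 under R 4.3.3 (filterByExpr, TMM scaling, quasi-likelihood F test, two-sided, Benjamini-Hochberg adjustment over 17638 genes, threshold 0.05). CPM uses TMM-scaled library sizes. Each SE is the log2 fold change over the root of its F statistic, and the biological coefficient of variation shared by all genes was 0.119. Replicates differed beyond counting noise in every pair. Chi-square per degree of freedom was 25.2 and 30.8 in the pairs with control replicate 3, and 9.98 to 18.4 in the others. On simulated data with a length and GC trend, the test without the correction called many unchanged genes, and with it few. The simulated trend had the form that the correction removes, so this checks the code only. The origin of the trend in these libraries was not tested. Intervals and floors of 3 counts cover counting error only.

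The members and lists were chosen with earlier results of these data known. Named genes were all members, GPT, ligands, other binding proteins and receptors, up to 4 genes per other list with the smallest adjusted p past 0.05, the 5 genes most like IGFBP3 and IRS4, and markers. Of the genes this rule took, 1 is not reported here. Others named, IGF2BP1 among them, were chosen after their values were seen. Alternatives were other scalings and filters, DESeq2 1.42.0, limma voom 3.58.1, a replicate block, GPT left out, each library left out, an adjusted p of 0.01, and a length and GC offset (mgcv 1.9.3), for which 98.9% of tested genes had values. The replicate numbers come from the sample titles.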

Additional observations from a re-analysis of the deposited data

How the results depend on the processing

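Among the 8 members not used to choose the set, 3 passed under other scalings, other filters, DESeq2, limma voom and GPT left out, and 2 to 3 when each library was left out, but 5 with the length and GC correction. With that correction IGF1R (0.235, adjusted p = 0.00876) and IGF2R (0.461, adjusted p = 0.00104) passed and IRS2 turned to 0.049. IGFBP6, near 0 throughout, was 0.022 with upper-quartile factors. With each library left out, log2 fold changes ran from -0.129 to 0.097 for IGFBP6, from -0.028 to 0.103 for IGF1R and from -0.614 to -0.44 for IRS1. In the same runs the counts of genes past the threshold were 1443 to 4907 in the whole table, 12 to 39 over all pathway lists, 1 to 5 for proteases, 1 to 2 for IGFBP3 partners, 0 to 4 for other adaptors, 1 to 5 for negative regulators, 2 to 11 for PI3K, AKT and mTOR, 5 to 10 for FOXO targets and 0 to 1 for other binding proteins. At an adjusted p of 0.01, 1172 genes passed in the table, 11 over all lists, 1 protease, 1 IGFBP3 partner, 0 other adaptors, 1 negative regulator, 2 of PI3K, AKT and mTOR, 5 FOXO targets and 0 other binding proteins. The length and GC correction gave 16 for PI3K, AKT and mTOR and 2 for IGF2 mRNA-binding proteins. Upper-quartile factors gave 2 for IGF2 mRNA-binding proteins and 3 negative regulators, and no expression filter gave 2 other binding proteins. Beyond the smaller number of samples or the stricter threshold, the cause was not tested.

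Same-numbered libraries correlated at 0.141, -0.282 and -0.084 in their deviations from the group means, so the numbers were not taken to pair the samples. With the replicate block 3886 genes passed in the table, 3 of the 8 members, 1 IGFBP3 partner and 3 negative regulators, and STC2, TMEM219 and PTPRF were among the genes that lost their calls.

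Without length scaling the mean shares in the family sums were, in GPT1 libraries, 71.6% for IGFBP2, 15.8% for IGFBP4, 7.30% for IGFBP5, 4.04% for IGFBP6, 2.63% for IRS1, 2.49% for IRS2, 94.9% for IRS4 and 1.35% for IGFBP3, and in control libraries 54.2% for IGFBP2, 28.7% for IGFBP4, 7.79% for IGFBP5, 2.84% for IGFBP6, 1.93% for IRS1, 1.37% for IRS2, 6.47% for IGFBP3 and 96.7% for IRS4. IGFBP2 then had the largest share in both groups. The medians of all tested genes lay between -0.034 and 0.03 over all settings. Depth limited IGF2, INSRR and IGFALS, whose counts were too low for the test. IGFBP1 was left out of the test because a single library held its counts.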
